A study of Homo sapiens with 12 samples.

Results

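A set of 104 autosomal protein-coding genes was read in every library of HCT116 cells carrying CR3 and was silent or nearly silent in cells carrying the reverse, scramble or mCherry construct. A gene was taken when each of the 3 CR3 libraries held at least 30 normalized reads (reads of the gene over the size factor of that library) and the mean over the 9 other libraries was under 1. Zinc finger genes with ZNF symbols, HOX genes, protocadherins with PCDH symbols and 9 further named genes were set aside, which removed 11 of 115. The starting pool was 18502 autosomal protein-coding genes, of which 4695 had a mean under 1 outside CR3. Because these values chose the genes, their levels in CR3 against the other groups are given as a description, with no test.

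HCT116 is a human colorectal cancer line. PolyA RNA was sequenced from 12 libraries of 4 genotypes, 3 libraries each: CR3, a peptide described by the submitters as perturbing condensates, reverse and scramble, named as variants of it, and mCherry, the control. Every culture received doxycycline, written in the labels as 1 ug/ul and 48 with no unit, to induce its construct, so no group was uninduced. The series text speaks of cell clones without saying how many there were for each genotype, so differences between constructs and between clones cannot be told apart. Whether the 3 libraries of a group came from separate cultures is not stated, and p-values below measure the spread between libraries. In bulk RNA, few cells with much of a transcript and many cells with little of it cannot be told apart.

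Most human genes that are silent in a given cell type are held silent in chromatin. Many promoters are rich in CG dinucleotides (CpG islands). Such promoters are usually unmethylated and either active or bound by Polycomb complexes, and in cancer cells a subset becomes methylated on DNA and stays off. HCT116 is a standard line for the study of that methylation, and SDC2, CHFR, GATA4 and GATA5 are known as genes whose promoters are methylated in many colorectal tumors.

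Promoter sequence was a property the rule did not use. RefSeq windows (build GRCh38.p14) reaching from 250 bases before to 50 bases after the annotated start were matched for 78 of the 104 genes, and where a gene had several the one closest to its GENCODE start was taken. SDC2, GATA4 and GATA5 were among the genes without a window, so the CG counts below do not cover them. The 5 stretches printed here are the 250 bases before the start, 5′ to 3′ on the gene's strand, with each CG in capitals. TUB and POU4F1 show windows denser in CG than the upper quartile of the set and CHFR one between the median and that quartile. CDHR1 belongs to a gene with no read at all outside CR3. SPART, the gene with the most CR3 reads, shows a CG-poor window at its outermost annotated start, which need not be the start in use. They lie at chr11:8018995-8019244 (plus strand, TUB), chr13:78603553-78603802 (minus strand, POU4F1), chr12:132887619-132887868 (minus strand, CHFR), chr10:84194287-84194536 (plus strand, CDHR1) and chr13:36370181-36370430 (minus strand, SPART). These genes were picked after their values were seen.
TUB: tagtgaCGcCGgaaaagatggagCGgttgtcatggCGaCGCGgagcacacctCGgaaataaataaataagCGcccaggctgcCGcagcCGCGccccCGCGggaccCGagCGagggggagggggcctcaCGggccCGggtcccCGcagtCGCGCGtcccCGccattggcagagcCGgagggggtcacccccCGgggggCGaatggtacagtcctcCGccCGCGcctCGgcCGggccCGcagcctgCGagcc
POU4F1: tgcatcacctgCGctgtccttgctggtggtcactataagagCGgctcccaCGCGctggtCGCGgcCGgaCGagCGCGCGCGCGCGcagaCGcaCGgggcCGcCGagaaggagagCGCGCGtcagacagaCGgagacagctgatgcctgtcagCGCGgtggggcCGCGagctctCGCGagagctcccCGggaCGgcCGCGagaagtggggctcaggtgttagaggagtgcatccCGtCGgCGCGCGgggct
CHFR: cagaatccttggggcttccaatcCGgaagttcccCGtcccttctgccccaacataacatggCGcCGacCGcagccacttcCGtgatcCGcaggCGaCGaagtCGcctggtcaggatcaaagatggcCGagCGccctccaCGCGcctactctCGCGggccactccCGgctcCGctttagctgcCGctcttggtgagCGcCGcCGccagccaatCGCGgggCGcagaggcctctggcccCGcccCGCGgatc
CDHR1: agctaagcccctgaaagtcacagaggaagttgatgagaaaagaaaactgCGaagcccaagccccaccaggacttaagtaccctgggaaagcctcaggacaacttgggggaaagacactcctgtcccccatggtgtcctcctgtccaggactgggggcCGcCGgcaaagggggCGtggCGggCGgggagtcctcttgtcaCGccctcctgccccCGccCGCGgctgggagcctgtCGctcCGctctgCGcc
SPART: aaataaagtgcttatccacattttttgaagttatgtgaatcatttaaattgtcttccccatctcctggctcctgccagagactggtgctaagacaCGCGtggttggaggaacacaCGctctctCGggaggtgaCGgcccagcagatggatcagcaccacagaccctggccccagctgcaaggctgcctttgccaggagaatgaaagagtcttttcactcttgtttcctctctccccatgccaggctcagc

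The printed stretch held 32 CG in TUB, 37 in POU4F1, 28 in CHFR, 13 in CDHR1 and 5 in SPART. Over the whole 300-base windows the 78 genes had a median of 25.5 CG, with quartiles of 19.2 and 38. The other 3165 genes that were silent outside CR3 and had a window had a median of 5 CG, and 9281 genes with a mean of at least 20 normalized reads outside CR3 had 27. A window was counted as CG-rich when its GC content exceeded 55% and its observed over expected CG exceeded 0.6. By that measure 63 of the 78 windows (80.8%) were CG-rich, against 24.2% of the other silent genes, 78.1% of the expressed genes and 61.6% of all 14003 windows. The set thus had the CG content of expressed genes and not that of the bulk of silent genes, as a description with no test.

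The same difference appeared one step below the threshold. The comparison groups here and above keep genes of the kinds that the set left out by name, such as those with ZNF, HOX or PCDH symbols. Among silent genes whose lowest CR3 library lay from 10 up to 30, 66.7% of 108 windows were CG-rich, with a median of 24 CG. Among silent genes with a CR3 mean under 1, 17.9% of 2516 windows were CG-rich, with a median of 4 CG. For 66 of the 78 genes the window lay within 1000 bases of the GENCODE start, and 55 of those 66 were CG-rich. For the other 12, CHFR, RARB, TCF4 and LSAMP among them, it belonged to a different start. Which promoter gave the reads is not known for any of the 78, as a window near the GENCODE start need not be the one in use.

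**Figure D1:**
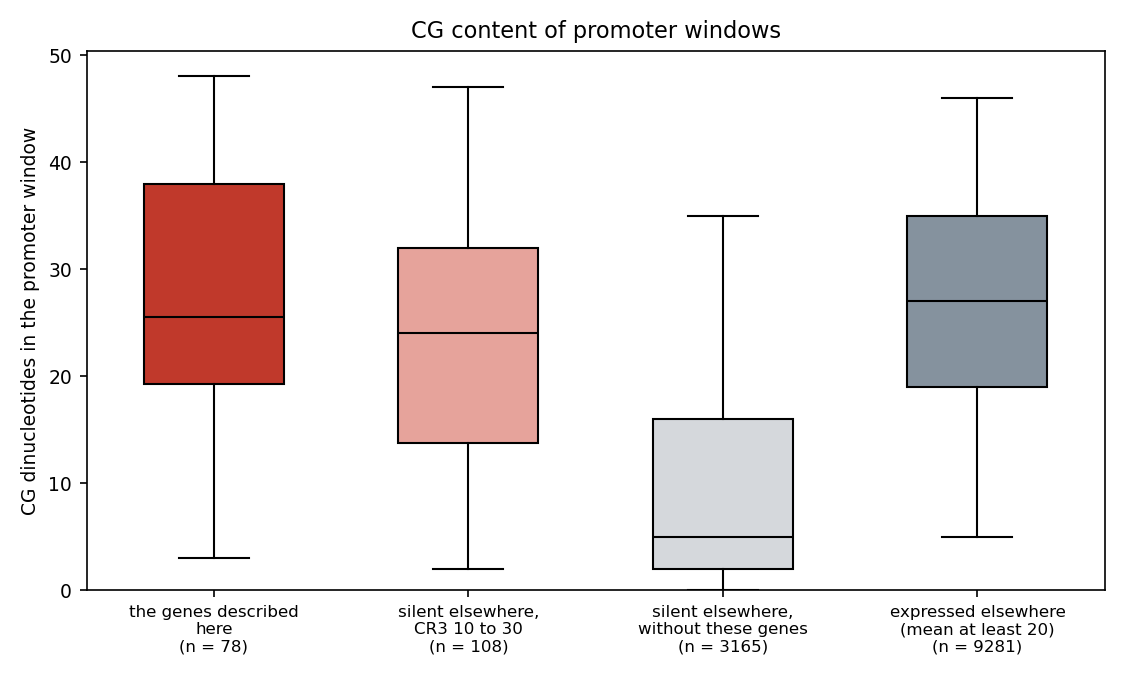
CG dinucleotides per promoter window (vertical axis, count per 300 bases) for 78 genes of the set, 108 silent genes with a lowest CR3 library from 10 up to 30, all 3165 other silent genes and 9281 expressed genes. Boxes span the quartiles around the median and whiskers the 5th to 95th percentile. The set's median of 25.5 lies near the 27 of expressed genes, and the other silent genes have 5.

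7 short motifs were searched on both strands of these windows, none contained in another. The GC box core GGGCGG, bound by SP1, was found in 56 of 78 windows (71.8%), against 30.9% of the other silent genes, 72.7% of the expressed genes and 60.3% of all windows. The TATA box core TATAAA was found in 8 (10.3%), those of SMOC1, PDPN, CRYGD, FLT1, OSTN, NSG1, BCHE and ELAVL2, against 20.5% of the other silent genes, 5.10% of the expressed genes and 9.51% of all windows. The E-box CACGTG was in 6 (7.69%, against 4.96%, 10.2% and 8.74% in the same order). The cyclic AMP element TGACGTCA was in 1, that of FLT1 (1.28%, against 2.61% of all windows). The AP-1 site TGACTCA, the part TTCAGCACC of RE1, the element bound by REST, and a further part of RE1 of 10 letters were in none of the 78, against 3.59%, 0.357% and 0.378% of all windows. These counts describe letters in a window and not binding.

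The 104 genes together took 7690, 9060 and 7354 reads in the CR3 libraries, which was 0.0384% to 0.0428% of all reads there. They took 53, 32 and 41 reads in the reverse libraries, 43, 16 and 36 in the scramble libraries and 45, 65 and 64 in the mCherry libraries. Every gene had a read in each CR3 library, and between 12 and 44 of the 104 had a read in each other library. The lowest CR3 library exceeded the highest of the other 9 libraries for all 104, as it did for 13.8% of the 15396 genes tested in the series, and the rule fixes that result. The closest approach was a ratio of 9.72 between the lowest CR3 library and the highest other one.

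Outside CR3, 12 genes had no read in 9 libraries, 42 had 1 to 3 reads in all, and 50 had more, up to 9. The highest value in any such library was 5.22 normalized reads. A silent gene is therefore one listed at or near 0 among 17431133 to 23566102 reads per library, and lower levels were not detectable at this depth.

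Mean CR3 levels ran from 33.1 to 239 normalized reads with a median of 62.0. They reached 100 in 20 genes, lay from 50 up to 100 in 51 and stayed below 50 in 33. These values grow with transcript length. Per kilobase of annotated exon the set had a median of 11.1 normalized reads in CR3, against 123 for all 13070 protein-coding genes tested, of which 10.9% lay below the set's median. The highest level per kilobase was 124, in CRYGD, a structural crystallin of the eye lens, and the lowest 2.38, in TCF4.

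**Figure D2:**
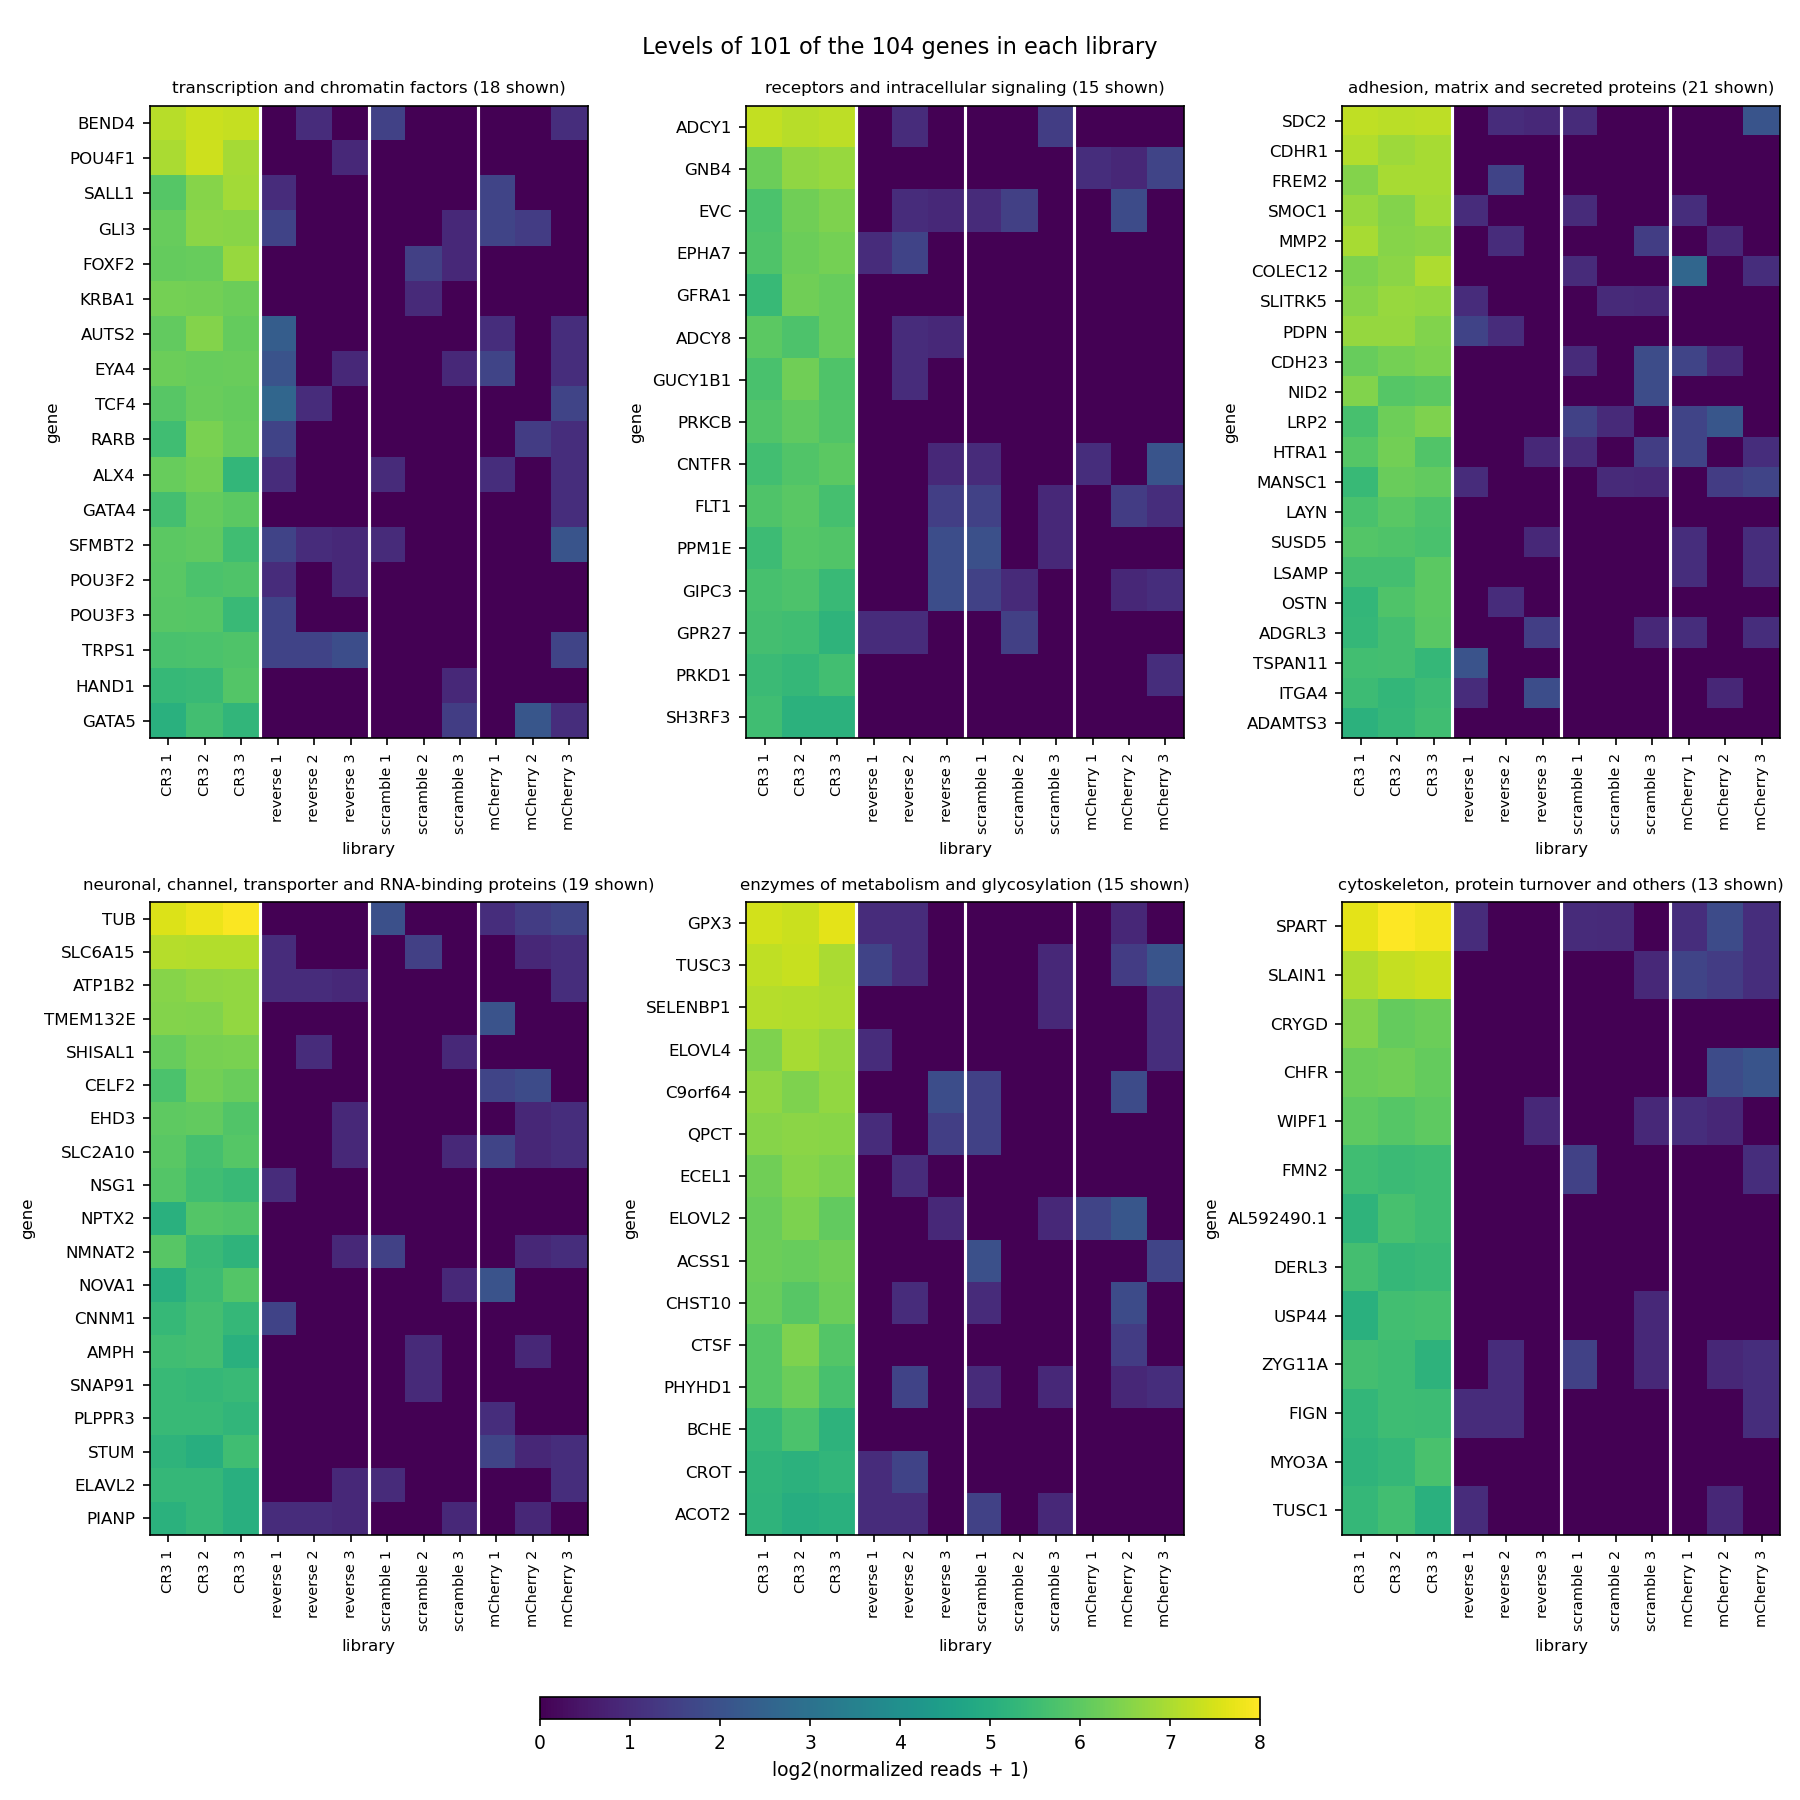
Level of 101 of the 104 genes (rows, grouped by function) in each of the 12 libraries (columns, CR3 left), as log2(normalized reads + 1) in color. The 3 CR3 columns are bright in every row, and no other library exceeds 5.22 normalized reads.

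The functional groups below were drawn up after the genes were known, and 24 of the 25 genes with the highest CR3 means are given library by library. The group of 19 transcription and chromatin factors had CR3 means from 38.8 to 154 normalized reads with a median of 66.1, and each had at least 1 read outside CR3. BEND4, a nuclear protein with a BEN domain, had 141, 164 and 156 normalized reads in CR3. It had 0, 1 and 0 reads in reverse, 2, 0 and 0 in scramble and 0, 0 and 1 in mCherry. POU4F1, also called BRN3A, a POU-domain factor of sensory neurons, had 126, 168 and 121 normalized reads in CR3. It had 1 read in reverse library 3 and none in the other 8. No library outside CR3 came near either gene's CR3 values.

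Several factors of organ patterning stood in this group. SALL1, a kidney and limb factor, averaged 89.3 ± 29.7 normalized reads in CR3 (SD, n = 3), and GLI3, a transducer of Hedgehog signals, 86.4 ± 15.0. FOXF2, a forkhead factor of gut mesenchyme, averaged 81.6 ± 22.3. The cardiac and endodermal GATA factors were both present, GATA4 at 59.3 ± 10.4 and GATA5 at 38.8 ± 7.03. HAND1, a basic helix-loop-helix factor of heart and trophoblast, averaged 46.6 ± 9.44.

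The neural POU factors POU3F2 and POU3F3 averaged 55.6 ± 4.64 and 53.0 ± 10.1 normalized reads in CR3. The others were KRBA1 (76.6), AUTS2 (75.2), a neurodevelopmental gene, EYA4 (71.1), a phosphatase and coactivator, and TCF4 (66.3), an E protein. RARB (66.1), a retinoic acid receptor, ALX4 (62.1), a craniofacial homeodomain factor, SFMBT2 (57.4), a Polycomb-group protein, and TRPS1 (52.7), a GATA-type repressor, were also in the group. RARB overlaps TOP2B on the opposite strand, and TOP2B averaged 3749 normalized reads in CR3 and 3712 in the 9 other libraries.

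Receptors and intracellular signaling proteins numbered 15, with CR3 means from 38.0 to 146 and a median of 59.0. ADCY1, a calcium-stimulated adenylyl cyclase of neurons, had 154, 139 and 146 normalized reads in CR3. It had 0, 1 and 0 reads in reverse, 0, 0 and 2 in scramble and none in mCherry. GNB4, a G protein beta subunit, had 72.9, 102 and 108 normalized reads in CR3. Its only reads elsewhere were 1, 1 and 2 in mCherry. Both sets of values lie far apart.

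Among cyclic nucleotide enzymes, a further adenylyl cyclase, ADCY8, averaged 61.8 normalized reads in CR3 and GUCY1B1, the beta subunit of soluble guanylyl cyclase, 60.6. Among receptors, EPHA7, an ephrin receptor, averaged 69.2, GFRA1, the co-receptor for GDNF, 62.2, CNTFR, the receptor for ciliary neurotrophic factor, 54.9, FLT1, a VEGF receptor, 54.8, and GPR27, an orphan receptor, 43.1. Downstream proteins were the kinases PRKCB (59.0) and PRKD1 (43.1), the phosphatase PPM1E (52.4), EVC (71.6) of Hedgehog signaling at cilia, GIPC3 (48.5) and SH3RF3 (38.0). GFRA1, PRKCB and SH3RF3 had no read outside CR3. GPR27 overlaps EIF4E3 and PPM1E overlaps TRIM37, both on the opposite strand and both abundant in every group.

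Adhesion, matrix and secreted proteins formed the largest group, with 21 genes and CR3 means from 39.9 to 147 around a median of 70.1. SDC2, the heparan sulfate proteoglycan syndecan 2, had 149, 145 and 147 normalized reads in CR3. It had 0, 1 and 1 reads in reverse, 1, 0 and 0 in scramble and 0, 0 and 3 in mCherry. CDHR1, a cadherin-related protein of photoreceptors, had 134, 111 and 122 normalized reads in CR3 and none in the 9 others. Against a floor of 3 reads over those 9 libraries, CDHR1 was at least 382-fold higher in CR3.

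FREM2, a basement membrane protein of epithelial adhesion in the embryo, had 89.7, 124 and 123 normalized reads in CR3 and 2 reads elsewhere, both in reverse library 2. SMOC1, a calcium-binding matrix protein, had 107, 91.2 and 118 in CR3 and 1 read in library 1 of reverse, of scramble and of mCherry. MMP2, the gelatinase A, had 122, 93.0 and 96.7 in CR3. It had 0, 1 and 0 reads in reverse, 0, 0 and 2 in scramble and 0, 1 and 0 in mCherry. In all 3 genes the CR3 values stood apart from the rest.

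COLEC12, a scavenger receptor with a collagen-like domain, had 85.01, 96.5 and 129 normalized reads in CR3. It had none in reverse, 1, 0 and 0 reads in scramble and 5, 0 and 1 in mCherry, and its 5.22 normalized reads in mCherry library 1 were the highest value of the set outside CR3. SLITRK5, a synaptic adhesion protein, had 93.4, 108 and 103 normalized reads in CR3 and 3 reads elsewhere. PDPN, podoplanin, a mucin-like protein of lymphatic endothelium and podocytes, had 106, 105 and 89.3 in CR3, with 2, 1 and 0 reads in reverse and none in scramble or mCherry.

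The remaining matrix and surface genes had CR3 means between 39.9 and 77.6 normalized reads. They were CDH23 (77.6), a cadherin of hair cells, NID2 (70.1), a nidogen of basement membranes, LRP2 (70.1), the endocytic receptor megalin, HTRA1 (64.4), a secreted protease, MANSC1 (59.4) and LAYN (55.02), a hyaluronan receptor. Lower still were SUSD5 (54.1), LSAMP (52.5), a neural adhesion protein, OSTN (51.4), a secreted peptide of muscle and bone, ADGRL3 (49.4), a latrophilin, TSPAN11 (44.8), ITGA4 (42.0), an integrin subunit of leukocytes, and ADAMTS3 (39.9), a procollagen protease. LAYN and ADAMTS3 had no read outside CR3. CDH23 overlaps VSIR and NID2 overlaps RTRAF on the opposite strand.

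The 20 neuronal, channel, transporter and RNA-binding genes had CR3 means from 35.0 to 218 with a median of 48.0. TUB, the founding member of the tubby family, lies at chr11:8019244-8106112 (GRCh38, plus strand) and had 191, 216 and 247 normalized reads in CR3. It had none in reverse, 3, 0 and 0 reads in scramble and 1, 2 and 2 in mCherry. The ratio of its pooled reads per unit of library size, CR3 over the other 9 libraries, was 254, with an exact 95% counting interval of 128 to 591. That interval covers counting error alone, not the spread between libraries, and describes reads that also chose the gene.

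SLC6A15, a neutral amino acid transporter of brain, had 136, 134 and 133 normalized reads in CR3 and 5 reads elsewhere. ATP1B2, a beta subunit of the sodium pump, had 92.5, 102 and 104 in CR3, with 1 read in each reverse library, none in scramble and 1 in mCherry. The CR3 values of both genes lay close together, and SLC6A15 had an SD of 1.78, or 1.33% of its mean. Counting error of a single library had a median of 12.4% in the set. An SD that far below it, over 3 libraries, does not show steadier expression.

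TMEM132E, a membrane protein linked to hearing loss, had 90.6, 88.6 and 103 normalized reads in CR3 and 3 reads elsewhere, all in mCherry library 1. Below it came SHISAL1 (77.9), the RNA-binding proteins CELF2 (67.2), NOVA1 (44.3) and ELAVL2 (36.9), EHD3 (62.2) of endosomal recycling and the glucose transporter SLC2A10 (56.1). Synaptic and vesicle proteins were NSG1 (48.0), NPTX2 (48.0), AMPH (42.0) and SNAP91 (40.7). NMNAT2 (46.0), an NAD-synthesizing axon survival factor, CNNM1 (42.3), PLPPR3 (39.8), STUM (37.6) and PIANP (35.0) had the remaining values. NPTX2 had no read outside CR3, and NSG1 overlaps STX18 on the opposite strand.

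Enzymes of metabolism and glycosylation numbered 16, with CR3 means from 33.1 to 180 and a median of 73.5. GPX3, the secreted glutathione peroxidase, had 175, 163 and 202 normalized reads in CR3. It had 1, 1 and 0 reads in reverse, none in scramble and 0, 1 and 0 in mCherry. TUSC3, a subunit of the oligosaccharyltransferase, had 149, 161 and 124 in CR3. With 2, 1 and 0 reads in reverse, 0, 0 and 1 in scramble and 0, 2 and 3 in mCherry it held 9 reads outside CR3, as many as LRP2 and TRPS1 and more than the other members.

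SELENBP1, a methanethiol oxidase of normal colon epithelium, had 136, 133 and 129 normalized reads in CR3 and 2 reads elsewhere. ELOVL4, an elongase of very long fatty acids, had 86.9, 123 and 107 in CR3 and 2 reads elsewhere. QPCT, glutaminyl cyclase, had 93.4, 96.5 and 93.5 in CR3 and 5 reads elsewhere, none of them in mCherry. C9orf64, a queuosine salvage enzyme, had 102, 86.0 and 103 in CR3, with 0, 0 and 3 reads in reverse, 2, 0 and 0 in scramble and 0, 3 and 0 in mCherry.

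Other enzymes were ECEL1 (84.5), a neural endopeptidase-like protein, ELOVL2 (74.1), a further fatty acid elongase, ACSS1 (72.9), the mitochondrial acetyl-CoA synthetase, and CHST10 (67.4), a sulfotransferase. CTSF (67.1), a lysosomal protease, PHYHD1 (59.9), BCHE (42.3), butyrylcholinesterase, CROT (35.9), a peroxisomal carnitine transferase, and ACOT2 (33.1), a mitochondrial thioesterase, followed. BCHE had no read outside CR3. ACOT2 has a near-identical neighbor, ACOT1, with which reads can be shared, and its value is uncertain.

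The last 13 genes serve the cytoskeleton, protein turnover or other functions, with CR3 means from 39.6 to 239 around a median of 43.4. SPART, spartin, a protein of endosomes and lipid droplets that is mutated in a spastic paraplegia, lies at chr13:36301638-36370180 (GRCh38, minus strand). It had 202, 284 and 232 normalized reads in CR3, 1, 0 and 0 reads in reverse, 1, 1 and 0 in scramble and 1, 3 and 1 in mCherry. Its pooled reads per unit of library size were 282 times as high in CR3 as in the 9 others (exact 95% counting interval 143 to 656, counting error alone, on reads that also chose the gene). SLAIN1, a protein of growing microtubule ends on the same chromosome, had 130, 157 and 166 normalized reads in CR3, none in reverse, 1 read in scramble and 2, 2 and 1 reads in mCherry.

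CRYGD averaged 76.9 ± 11.48 normalized reads in CR3 and had no read elsewhere. CHFR, a ubiquitin ligase of the mitotic entry checkpoint, averaged 72.1 ± 4.15 and had 6 reads in mCherry and none in reverse or scramble. CHFR overlaps GOLGA3 and ZNF605 on the same strand in the annotation used. ZNF605 averaged 22.6 normalized reads in CR3 and 0.213 in the other 9 libraries. WIPF1 (61.7) and FMN2 (44.5) act on actin, MYO3A (42.0) is a myosin of hair cells and FIGN (42.2) severs microtubules. DERL3 (42.9), of endoplasmic reticulum protein degradation, USP44 (42.7), a deubiquitinase, ZYG11A (42.5), TUSC1 (39.6) and AL592490.1 (43.4) were the others, and DERL3 overlaps SMARCB1 on the opposite strand. DERL3, MYO3A and AL592490.1 had no read outside CR3.

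**Figure D3:**
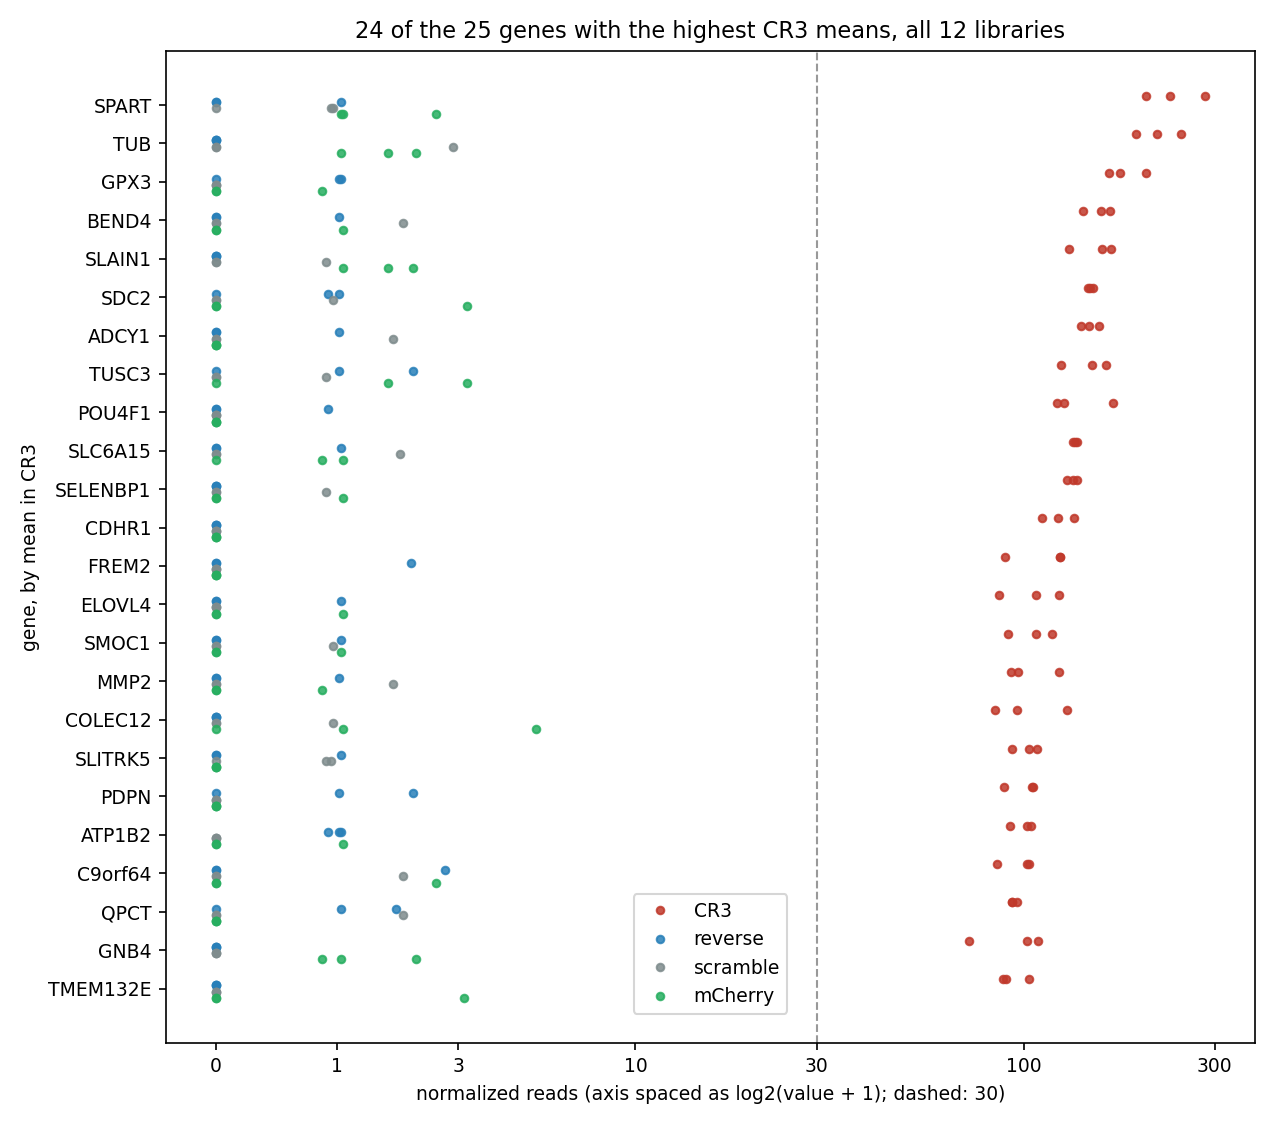
Normalized reads in all 12 libraries (horizontal axis, spaced as log2 of value + 1) for 24 of the 25 genes with the highest CR3 means, 1 point per library. CR3 points lie between 72.9 and 284, right of the dashed line at 30, and points of reverse, scramble and mCherry reach at most 5.22.

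Libraries were made with a stranded kit, but whether the counting used strand is not stated. In the set, 8 genes overlap an abundant gene (RARB, GPR27, PPM1E, CDH23, NID2, NSG1, CHFR and DERL3). What part of their reads belongs to the partner was not tested. The partners averaged between 527 and 3749 normalized reads in CR3 and between 517 and 3712 in the 9 libraries where the members were near 0. Some other partners were themselves low outside CR3. CRMP1, opposite EVC, averaged 12.9 in CR3 and 0.119 in the other 9, and AC018730.2, on the strand of POU3F3, 5.56 and 0.

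The 3 CR3 libraries gave similar values. The coefficient of variation over them had a median of 13.7% in the set, with a range of 1.24% to 33.9%. For 3361 other tested genes in the same range of CR3 means the median was 11.9%. The counting error of a single library, as a percent of the mean, had a median of 12.4% in the set. An SD taken over 3 libraries tends to fall below the true one, so that figure is not directly comparable with the 13.7%. The highest CR3 library exceeded the lowest by more than 1.5 times in 17 genes and by more than 2 times in ALX4 and SALL1, with a largest ratio of 2.04. ALX4 had 70.1, 78.1 and 38.3 normalized reads and SALL1 57.9, 93.0 and 117. CR3 library 1 was the lowest of the 3 in 47 genes, library 2 in 25 and library 3 in 32, and the summed levels were 7184, 7947 and 7816 normalized reads.

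Genes near the thresholds were as follows, with no test. Just inside 30 reads, ACOT2 had 35.5, 30.7 and 32.9 normalized reads in CR3, STUM 35.5, 31.6 and 45.7, and NOVA1 31.8, 43.9 and 57.4. Just outside, CD302 had 29.9, 45.6 and 38.3, KCNT2 30.8, 29.8 and 38.3, and PABPC4L 45.8, 68.4 and 29.8. Just inside a mean of 1 outside CR3 stood TRPS1 (0.996), TUSC3 (0.985) and TCF4 (0.929). Just outside stood GPC6 (1.00), PKHD1L1 (1.01) and EPB41L3 (1.02), with CR3 means of 51.7, 78.0 and 190.

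The threshold therefore divides a continuous range. Of the 4695 genes silent outside CR3, 3682 had a CR3 mean under 1, 754 had a mean of at least 1 with a lowest CR3 library under 10, 144 had a lowest CR3 library from 10 up to 30 and 115 reached 30. The same thresholds with another group in the place of CR3 gave 6 genes for reverse, 3 for scramble and 2 for mCherry. Among autosomal protein-coding genes, with the same names set aside, none had at least 30 normalized reads in each of the 9 other libraries and a CR3 mean under 1.

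The set was spread over 21 autosomes. Chromosome 13 held 7 members, SPART, SLAIN1, POU4F1, FREM2, SLITRK5, FLT1 and AL592490.1, among 82 genes that were silent outside CR3 and not set aside by name, which is 8.54 per 100. Over all autosomes the rate was 104 of 4536, or 2.29 per 100. Chromosome 10 had 8 of 163 (4.91 per 100) and chromosome 2 had 11 of 250 (4.40 per 100). Chromosome 19 kept 312 of its 397 silent genes by this count and had 2 members (0.641 per 100), and chromosome 21 none of 93.

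Among the 3 groups without CR3 the rule leaves almost nothing to compare. It held each gene to a mean under 1 over these same 9 libraries, and all 104 entered the fit through their CR3 reads, so the counts of calls that follow are largely fixed by the rule and nothing is read from them. The fit was limma on log2(normalized reads + 1) with Benjamini-Hochberg adjustment over 15396 genes, called under 0.05. For scramble against mCherry 0 members were called, 6 had an unadjusted p under 0.05 and limma with voom weights also called 0, while 1.58% of all genes were called (0.792% higher and 0.786% lower). For reverse against mCherry the counts were 0, 15 and 0 (0.650% of all genes, 0.253% higher and 0.396% lower), and for reverse against scramble 0, 7 and 0 (0.461%, 0.273% higher and 0.188% lower).

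The few reads outside CR3 were unevenly spread in some genes, as a description. TRPS1 had 2, 2 and 3 reads in the reverse libraries, none in scramble and 0, 0 and 2 in mCherry. STUM had none in reverse or scramble and 2, 1 and 1 in mCherry.

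In the CR3 comparisons all 104 were called higher against reverse, scramble and mCherry, which their selection fixes. Of all 15396 genes tested, 17.0% were called higher and 16.8% lower in CR3 against reverse (33.7% in all), 19.1% and 18.7% against scramble (37.9%), and 14.1% and 14.6% against mCherry (28.7%). These comparisons share the CR3 libraries. Scaling by total reads instead raised the median log2 difference against mCherry to 0.09, with the deposited factors giving 0.00, and the share of calls that were higher to 73.8%, with the deposited factors giving 49.1%. Against scramble that share was 71.5% beside 50.5%, and against reverse 72.4% beside 50.3%.

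The nearest protein-coding genes on each side were followed to ask whether neighbors moved with the set. Of 205 distinct neighbors, 4 met the read thresholds themselves and 200 were in the data without meeting them. Of these 200, 131 were tested, and the rest failed the filter on low values or held an ambiguous cell. Called higher in CR3 were 23 against reverse (17.6%), 30 against scramble (22.9%) and 21 against mCherry (16.03%). Called lower were 26 (19.8%), 29 (22.1%) and 29 (22.1%). The shares called higher were near those of all genes, and the shares called lower lay above them, with no test of that difference. The median log2 difference of the neighbors was 0.02, 0.04 and 0.01.

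The 3 comparisons share the CR3 libraries, so calls recur between them. In all 3, 18 neighbors were called higher (13.7%) and 23 lower (17.6%), beside 11% and 11.2% of all 15396 genes, with no test of the difference. The 10 with the largest difference against mCherry were all higher, and 8 of them passed the filter on low values only through their CR3 reads, so they had to differ. SLITRK3, beside BCHE, had 25.2, 27.2 and 40.4 normalized reads in CR3 and none elsewhere. EDNRB, an endothelin receptor 131239 bases from SLAIN1, had 17.8, 15.8 and 11.7 in CR3 and none elsewhere. GUCY1A1, the alpha subunit of the guanylyl cyclase whose beta subunit is GUCY1B1, lies 26643 bases from that gene and had 12.1, 13.2 and 13.8 in CR3, with means of 0.2998 in reverse and 0 in scramble and mCherry.

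IGFBP7, CHRM3, IRX6, EYA2 and GPC5 were the other 5 of this kind. CHRM3, a muscarinic receptor beside FMN2, had 46.7, 71.1 and 65.9 normalized reads in CR3, against means of 0 in reverse, 1.22 in scramble and 3.29 in mCherry. EYA2, beside SLC2A10, had 53.3, 43.0 and 67.0 in CR3, none in reverse or scramble and a mean of 13.4 ± 4.41 in mCherry (SD, n = 3). The other 2 neighbors were expressed in every group. GATA3, far from CELF2, averaged log2 1.05 ± 0.24 (SE) higher in CR3 than in mCherry (limma, adjusted p = 0.0031), and ATRNL1, beside GFRA1, 0.82 ± 0.21 higher (adjusted p = 0.0060).

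With only genes that averaged at least 20 normalized reads outside CR3, an alternative added after seeing the data, 115 neighbors were tested. Called higher were 14 against reverse, 22 against scramble and 12 against mCherry (12.2%, 19.1% and 10.4%, beside 14.5%, 16.8% and 11.3% of all such genes). Called lower were 26, 29 and 29 (22.6%, 25.2% and 25.2%, beside 19.1%, 21.5% and 16.3%).

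**Figure D4:**
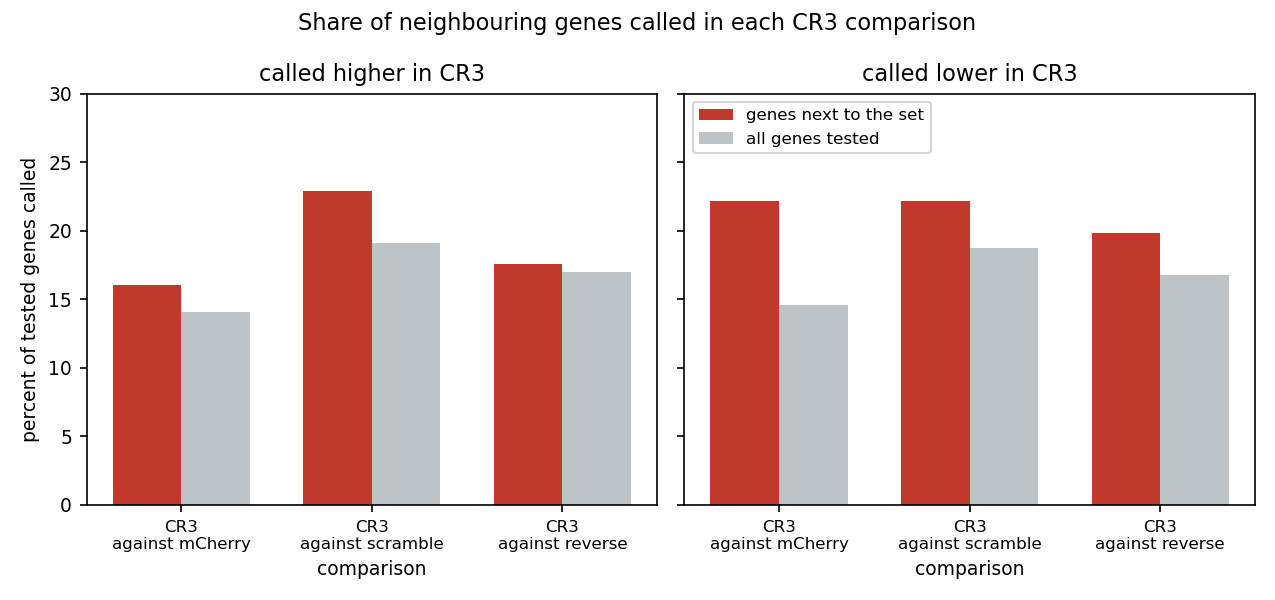
Percent of tested genes called higher (left) or lower (right) in CR3 in each comparison (horizontal axis), for the 131 neighbors (red) and all 15396 genes tested (gray). For calls higher the bars of neighbors are at 17.6%, 22.9% and 16.03%, beside 17.0%, 19.1% and 14.1% of all genes in the comparisons with reverse, scramble and mCherry.

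Genes of the machinery that sets, reads or removes the silencing of promoters had small differences. The DNA methylation list also holds genes that act against methylation, TET1 among them, so the pooled counts mix both kinds. Of 79 tested genes in 4 lists, 10 were called higher and 14 lower in CR3 against reverse, 13 and 16 against scramble, and 7 and 14 against mCherry. The shares were 12.7% and 17.7%, 16.5% and 20.3%, and 8.86% and 17.7%, beside 17.0% and 16.8%, 19.1% and 18.7%, and 14.1% and 14.6% of all genes, so the shares called lower lay close to the background and nothing particular to these genes is read from them. Scaling by total reads changed the split to 24 higher and 6 lower against mCherry. Of the called genes named here TET1 had the largest log2 difference, 0.74 against scramble, and none changed sign under that scaling. EZH2 (-0.18) and PHC2 (-0.18) lost their calls against mCherry under it, PHC2 also against scramble (-0.13), and SIN3A lost its calls against mCherry (-0.08) and reverse (-0.05). DNMT1 (-0.16) and KDM1A (-0.14) kept theirs against mCherry.

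In the DNA methylation list, 16 genes were tested, and 4 were called higher and 3 lower in CR3 against reverse, 5 and 3 against scramble, and 4 and 2 against mCherry, with a median log2 difference of 0.09 against mCherry. Beside these counts, 17.0%, 19.1% and 14.1% of all genes were called higher and 16.8%, 18.7% and 14.6% lower in the same order. DNMT1, the maintenance DNA methyltransferase, had 4977, 5432 and 5489 normalized reads in CR3, against means of 6822 ± 361 in reverse, 7013 ± 115 in scramble and 6279 ± 213 in mCherry (SD, n = 3 each). It was lower in CR3 by log2 -0.36, -0.41 and -0.25 in these comparisons (limma, adjusted p = 2.0e-05, 5.2e-06 and 0.0011). TET1, a dioxygenase that starts DNA demethylation, had 177, 259 and 238 in CR3, against means of 143 in reverse, 133 in scramble and 139 in mCherry, and was higher by 0.63, 0.74 and 0.67 (adjusted p = 0.0022, 0.00051 and 0.0017). ZBTB33, a reader of methylated DNA, was higher against mCherry by 0.36 (limma, adjusted p = 0.00077), and DNMT3A, a de novo methyltransferase, by 0.32 (adjusted p = 0.0062), a gene named after its values were seen.

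In the Polycomb list, 29 genes were tested, and 5 were called higher and 2 lower in CR3 against reverse, 5 and 6 against scramble, and 1 and 4 against mCherry, with medians of -0.07, -0.01 and -0.03. The shares of all genes were again 17.0%, 19.1% and 14.1% higher and 16.8%, 18.7% and 14.6% lower. EZH2, the main H3K27 methyltransferase, had 1314, 1486 and 1382 normalized reads in CR3, against means of 1775 ± 110 in reverse, 1821 ± 83.8 in scramble and 1679 ± 144 in mCherry. It was lower by -0.35, -0.39 and -0.27 (adjusted p = 0.00068, 0.00023 and 0.0066). PHF19, which recruits that complex, was lower by -0.37 against mCherry (adjusted p = 4.1e-05), and PHC2 by -0.27 (0.013) there but not past the threshold against reverse (adjusted p = 0.053). EZH1, the paralog of EZH2, was higher by 0.25 (adjusted p = 0.014).

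In the H3K9 methylation and HUSH list, 15 genes were tested, and 0 were called higher and 5 lower in CR3 against reverse, 1 and 5 against scramble, and 0 and 3 against mCherry. Of all genes, 17.0%, 19.1% and 14.1% were called higher and 16.8%, 18.7% and 14.6% lower in these comparisons. With the deposited factors the list summed to 40178 to 40607 normalized reads in CR3 and 46553 to 48677 in the other 9 libraries, with no test. Sums of the Polycomb list were also apart, though narrowly, at 45448.5 to 46047.5 in CR3 and 46798.7 to 47742.7 in the other 9. Those of the DNA methylation and corepressor lists overlapped. Scaling by total reads raises levels in CR3 (median log2 difference against mCherry 0.09 beside 0.00). The sums were not recomputed under it, so whether they stay apart is not known. The heterochromatin proteins CBX1 and CBX3 were lower against mCherry by -0.35 and -0.39 (limma, adjusted p = 5.5e-06 and 2.7e-05). TRIM28, the corepressor of KRAB zinc finger proteins, was lower by -0.30 (adjusted p = 0.00081). Among 19 corepressor genes, 1 was called higher and 4 lower in CR3 against reverse, 2 and 2 against scramble, and 2 and 5 against mCherry, among the last KDM1A (-0.23, adjusted p = 0.0014), SIN3A (-0.17, 0.018, but 0.094 against scramble) and NCOR1 (0.31, 0.0079). What part these differences have in the set's levels was not tested.

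Markers of other cell types were read beside the set. A list for HEK293, a human embryonic kidney line in wide laboratory use, was mostly higher in the CR3 libraries. Of its 12 genes 11 were matched and 9 tested, and 7 were called higher and 1 lower in CR3 in each comparison. Of all genes, 17.0% were called higher and 16.8% lower against reverse, 19.1% and 18.7% against scramble, and 14.1% and 14.6% against mCherry. At least IRS4, LUZP4, UCHL1 and NEFM passed the filter on low values only through their CR3 reads, so they had to differ. Its summed level was 2480 to 2746 normalized reads in the CR3 libraries, 815 to 903 in reverse, 805 to 902 in scramble and 728 to 797 in mCherry. IRS4 had 488, 587 and 575 normalized reads in CR3, against means of 1.29 in reverse, 1.52 in scramble and 4.70 in mCherry. LUZP4 had 397, 406 and 376 in CR3 and a mean of 0.107 over the other 9, and UCHL1 had 443, 546 and 492, with a mean of 2.08 over the other 9.

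LIN28B, CDH2, INA and NEFM were the other 4 called higher, and NEFM and LUZP4 meet the read thresholds of the set themselves. PAX2 did not pass, with log2 differences of -0.02, 0.15 and -0.04 against reverse, scramble and mCherry, the first and last of which turned positive (0.07 and 0.05) when scaled by total reads. GAL was lower, though not past the threshold against mCherry under that scaling, and STMN2 and BEX1 had under 12 normalized reads in any CR3 library. These genes and the set were high in the same 3 libraries. The part of such cells, or of any other cell type, in the result was not tested.

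Lists for other cell types were read in the same way, beside 14.1% to 19.1% of all genes called higher and 14.6% to 18.7% lower. The neuron list had 2 of 6 tested genes called higher and 2 lower in each comparison, with ELAVL4 at 0 in all libraries. With the deposited factors it summed to 2542 to 2791 normalized reads in CR3, lower than the 2924 to 3506 in the other 9 libraries. The fibroblast list, with DCN and THY1 near 0 and FAP at 0 in CR3, had 3 of 3 called higher against reverse and scramble and 1 against mCherry. It summed to 1037 to 1185 normalized reads in CR3 and 751 to 986 in the other 9. The blood list had PTPRC at 0 in every library, and its summed level was 2047 to 2149 normalized reads in CR3 and 692 to 846 in the other 9, with LAPTM5, which is not counted in the set, at 1313, 1395 and 1271 in CR3. The endothelial list (PECAM1 and CLDN5 at 0), the muscle list (MYOG at 0), the melanocyte list (TYR, MLANA and SOX10 at 0), the hepatocyte list (APOB, TTR and FGB at 0) and the pluripotent and germ cell list (all 10 under 10 in CR3) had summed levels in CR3 of 398 to 495, 273 to 302, 368 to 389, 352 to 417 and 5.31 to 12.3 normalized reads, against 329 to 622, 236 to 305, 307 to 419, 360 to 453 and 1.68 to 9.64 in the other 9 libraries.

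The labelled colorectal origin was checked as well. EPCAM, KRT8, KRT18 and KRT19 were abundant in every library and called lower in CR3 in each comparison, with log2 differences of -0.24, -0.26, -0.30 and -0.41 against mCherry. Scaled by total reads, KRT8 lost its calls against reverse and scramble and KRT18 against reverse. CDX2 and CDH1 were expressed and not called, and CDH17, CDX1 and VIL1 were near 0 in every group. The summed level of the 12 genes was 45707 to 52960 normalized reads in CR3, 55209 to 59267 in reverse, 57811 to 60964 in scramble and 55917 to 62836 in mCherry. These sums rest on the deposited factors. Scaling by total reads raises levels in CR3 (median log2 difference against mCherry 0.09 beside 0.00), and the sums were not recomputed under it.

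**Figure D5:**
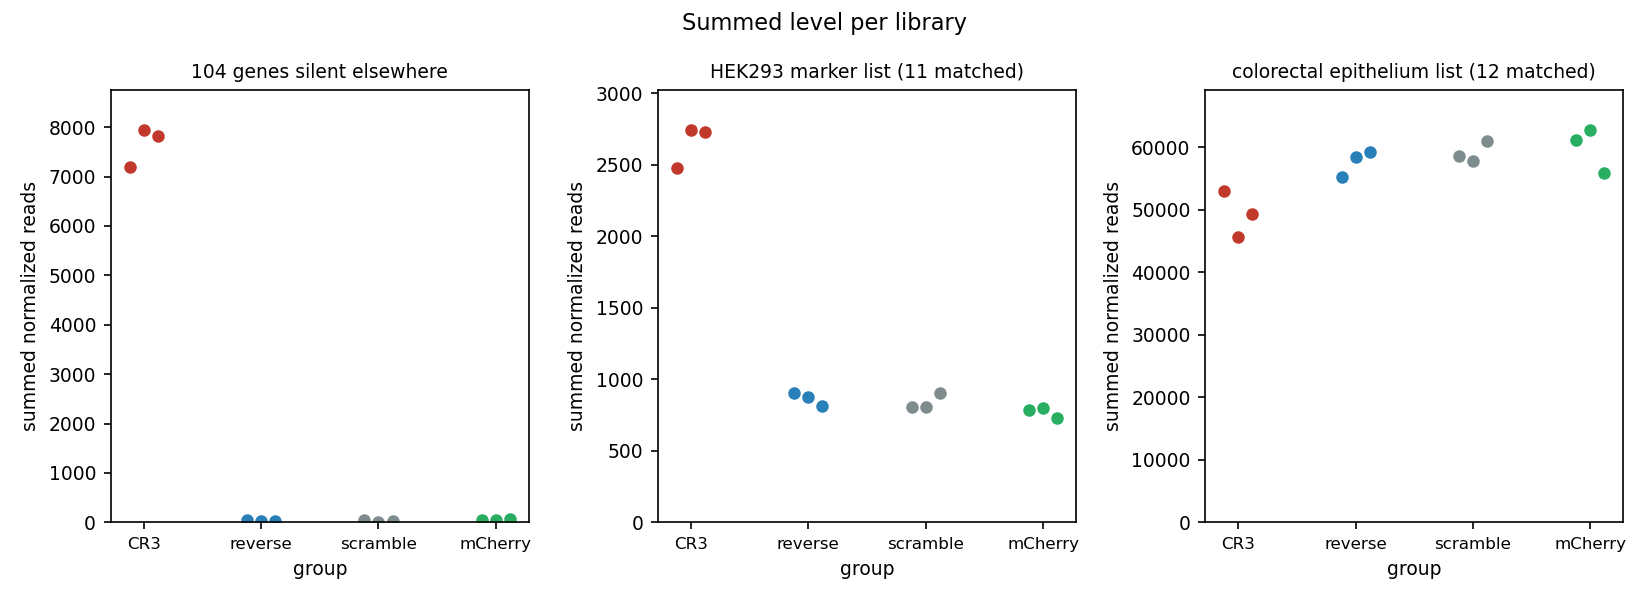
Summed normalized reads per library (vertical axis, from 0) of the 104 genes, the HEK293 marker list and the colorectal epithelium list, 1 point per library and CR3 at the left of each panel. The 104 genes sum to 7184 to 7947 in CR3 and the HEK293 list to 2480 to 2746. With the deposited factors, the only scaling shown, the colorectal list is lower in the CR3 libraries than in the other 9.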

How the data were processed

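The submitters' processing notes list STAR, featureCounts and Salmon, the count tools DESeq2 and edgeR, Trim Galore, GATK, MultiQC and FastQC, with build GRCh38. No version, strand setting or annotation release is stated there. The deposited values are read counts divided by a size factor per library, a reading taken from the values. Values of 1 or more had lost their decimal mark. Each library's worth of 1 read was found from its commonest non-zero value, and all 265152 non-zero cells were whole multiples of it (tolerance 1e-09). The power of 10 was chosen per gene by likelihood, with groups free to differ. The width of that prior was set after the data were seen, and a change close to a power of 10 is the kind such a reading can miss. In 1849 cells (0.697%) a second power had a likelihood within 20 times the best, none of them in the 104 genes. Hidden marks were read right in 98.4% of the 18138 cells that kept one.

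Libraries held 17431133 to 23566102 reads. Libraries of a group differed beyond counting noise, with chi-square values of 2.82 to 10.3 per degree of freedom. GENCODE 29 gave symbols and coordinates for 52526 of 63677 identifiers, and RefSeq the promoter windows. A count test had been planned for whole counts. As the unit was not counts, limma 3.58.1 (R 4.3.3, trend) was fitted to log2(normalized reads + 1) over all 12 libraries and 4 groups, with at least 10 reads in at least 3 libraries and without genes holding an ambiguous cell. P-values were two-sided, adjusted by Benjamini-Hochberg, and called under 0.05, and the fit was tested on simulated data. Fold changes on this scale understate those of low genes. Other work used Python 3.11.15. Intervals and floors cover counting error only. Same-numbered libraries did not deviate together.

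The genes, lists and tests were chosen with earlier results of these data known. Named were the 25 genes with the highest CR3 means, those nearest each threshold, up to 10 neighbors called in all 3 CR3 comparisons and up to 4 called genes per silencing list by p against mCherry. UHRF1, PCGF2 and NEFL matched no identifier. Results for a few of these genes are not reported here.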

Additional observations from a re-analysis of the deposited data

How the results depend on the processing

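The number of genes meeting the rule was 57 with at least 50 reads in each CR3 library and 64 with a mean under 0.5 elsewhere, beside 104. It ran from 103 to 111 when 1 library was left out, and was 142 with at least 20 reads, 146 with a mean under 2 and 110 when scaled by total reads. For all tested genes, scaling by total reads gave 4058 higher and 1546 lower in CR3 against reverse, 4500 and 1793 against scramble, and 3563 and 1263 against mCherry. For neighbors it gave 37 and 17 against reverse and 37 and 12 against mCherry. For silencing genes it gave 23 and 8, 25 and 9, and 24 and 6. The filter of at least 20 reads outside CR3 gave 14 and 12 neighbors higher against reverse and mCherry. With a pseudocount of 0.5, 2 members were called in scramble against mCherry and 2 in reverse against mCherry.

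Leaving out 1 library gave 1559 to 2939, 1897 to 3261 and 1105 to 2167 genes higher in CR3 against reverse, scramble and mCherry, with the lowest counts without CR3 library 3, and 2013 to 2924, 2357 to 3169 and 1650 to 2210 lower. Against reverse 1677 genes were called higher without CR3 library 1. Neighbors higher were 12 to 27, 17 to 33 and 9 to 23, with 12, 17 and 9 without CR3 library 3, 14, 18 and 12 without library 2, and 14 and 12 against reverse and mCherry without library 1. With 2 CR3 libraries, genes read in CR3 alone cannot pass the filter of 3 libraries. Neighbors lower were 21 to 31, 24 to 31 and 21 to 29. Silencing genes higher were 8 to 13, 8 to 15 (8 without CR3 library 3) and 5 to 8, and lower 9 to 19 (9 without reverse library 2), 11 to 19 and 10 to 14. Members called were 0 to 2 in scramble against mCherry, 0 to 2 in reverse against mCherry and 0 to 1 in reverse against scramble, each above 0 only without mCherry library 1 or 3, in comparisons that the rule largely fixes. Elsewhere the cause was not tested. The replicate block, over numbers that do not pair the libraries (correlations of deviations -0.235 to 0.123), gave 2006 higher and 2030 lower against mCherry and moved no count by over 1.5 times. Of the neighbors and silencing genes followed under the alternatives none changed direction. The marker lists were followed under total-read scaling alone. Levels under about 3 reads limit the comparisons without CR3.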
